A study of Mus musculus with 16 samples.

Results

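The 7 genes described here encode secreted factors of cytotoxic T cells, measured in sorted spleen CD8 T cells: interferon gamma (Ifng), tumour necrosis factor (Tnf), interleukin-10 (Il10) and the chemokines Ccl3, Ccl4, Ccl5 and Xcl1. They were taken by gene symbol as a functional group, with earlier results of these data known. All 7 were measured, each by 1 probe set, among 22180 genes tested on Affymetrix arrays. The mice were bone marrow chimeras, rebuilt with wild-type (WT) or Il4i1 knockout (KO) marrow and then given leukaemia cells of Eµ-TCL1 mice, a transgenic model of chronic lymphocytic leukaemia (CLL). After 5 weeks, effector cells (CD44+CD127-) and memory cells (CD44high CD127high) were sorted. This gave 4 groups of 4 samples, one for each subset and genotype, all from female mice whose strain is labelled C56BL/6. All 4 groups carried leukaemia, and leukaemia-free mice are not among the groups. Il4i1 encodes a secreted amino acid oxidase, and in a marrow chimera the cells of the host that do not come from marrow keep the host's genotype. The labels used here give no Il4i1 genotype for the host or the leukaemia cells. Nothing in the labels ties a sample to a mouse, so p-values measure the spread between these samples, which may be technical.

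Cytotoxic CD8 T cells make these factors after contact with antigen, and cells that have met antigen before make them faster than naive cells. Interferon gamma acts on Ifngr1 and Ifngr2 and raises antigen presentation, and tumour necrosis factor acts on Tnfrsf1a and Tnfrsf1b and promotes inflammation and cell death. Interleukin-10 restrains inflammation through Il10ra and Il10rb, and is made by strongly or chronically stimulated T cells as well as by many other leukocytes. Ccl3, Ccl4 and Ccl5 are CC chemokines that attract other leukocytes, while Xcl1 is a C chemokine that attracts the dendritic cells with Xcr1. In bulk samples, fewer cells that make a transcript and less of it per cell cannot be told apart.

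The RefSeq promoter table (GRCm38.p6) matched 4 of the 7 genes, namely Ifng, Tnf, Ccl3 and Xcl1. The 250 bases before each start are shown because Ifng and Ccl3 moved together on the arrays while Tnf and Xcl1 did not follow them. Capitals mark matches, on either strand, to GGANNTTCC (the core of an NF-kB site), TGANTCA (AP-1), GGAAAA (NFAT), TCACAC (T-box) or TGACGTCA (CRE).
Ifng, chr10:118440796-118441045, plus strand: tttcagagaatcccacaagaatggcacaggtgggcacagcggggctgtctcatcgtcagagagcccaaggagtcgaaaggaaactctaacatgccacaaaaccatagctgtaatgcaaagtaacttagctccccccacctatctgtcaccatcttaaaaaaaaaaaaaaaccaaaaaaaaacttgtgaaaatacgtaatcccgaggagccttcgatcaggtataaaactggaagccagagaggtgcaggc
Ccl3, chr11:83649379-83649628, minus strand: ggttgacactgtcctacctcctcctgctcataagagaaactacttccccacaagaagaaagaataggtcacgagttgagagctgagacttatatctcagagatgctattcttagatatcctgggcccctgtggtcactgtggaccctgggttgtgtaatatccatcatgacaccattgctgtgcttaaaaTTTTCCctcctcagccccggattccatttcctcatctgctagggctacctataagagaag
Tnf, chr17:35202008-35202257, minus strand: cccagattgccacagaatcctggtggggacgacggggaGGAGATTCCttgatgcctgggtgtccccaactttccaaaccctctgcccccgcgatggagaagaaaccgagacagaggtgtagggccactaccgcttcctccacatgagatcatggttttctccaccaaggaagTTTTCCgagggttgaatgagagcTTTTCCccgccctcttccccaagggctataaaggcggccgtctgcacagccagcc
Xcl1, chr1:164935523-164935772, minus strand: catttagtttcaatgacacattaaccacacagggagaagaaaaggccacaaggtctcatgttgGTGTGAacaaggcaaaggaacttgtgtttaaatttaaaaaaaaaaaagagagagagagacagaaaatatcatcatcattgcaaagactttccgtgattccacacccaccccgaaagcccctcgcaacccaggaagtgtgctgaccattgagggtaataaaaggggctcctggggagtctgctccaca

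Ifng held 0 matches, Ccl3 held 1 NFAT match, Tnf held 1 NF-kB core and 2 NFAT matches, and Xcl1 held 1 T-box match. None of the marked stretches overlap. Among 32851 windows of the same length, 3.59% held the NF-kB core, 6.75% the AP-1 motif, 20.4% the NFAT motif, 12.3% the T-box motif and 1.55% the CRE. The pair that moved together, Ifng and Ccl3, shared no match in these windows. The letters describe the windows alone. Ccl3 (chr11:83647843-83649378), Ccl4 (chr11:83648624-83664683) and Ccl5 (chr11:83525778-83530518) are neighbours on chromosome 11, and the RefSeq span of Ccl4, which includes a predicted transcript, overlaps Ccl3. Il10 (chr1:131019845-131024970) and Xcl1 (chr1:164931644-164935522) lie on chromosome 1, Ifng (chr10:118441046-118445894) on chromosome 10 and Tnf (chr17:35199367-35202007) on chromosome 17. Chromosome 7, which carries Il4i1, holds 0 of the 7.

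Values are log2 expression as deposited, so a difference of 1 is a 2-fold change, and values of different genes are not compared because each probe set has its own response. The probe sets of all 7 genes lay above the median of their array on 16 of 16 arrays. The array medians were 4.1169 to 4.2214. Array effector KO 4 stood apart, with correlations over genes of 0.965 to 0.974 to the others, while the other 105 pairs lay between 0.971 and 0.994. Leaving it out changed 1 call of the 7 genes, that of Tnf given with effector against memory. The 8 measured CD8 T cell markers were above the array median on every array, and Il7r, which encodes CD127, had means of 4.04 in effector WT, 5.69 in effector KO, 10.71 in memory WT and 11.08 in memory KO. Il7r was higher in effector KO than in effector WT (1.65 ± 0.25, limma adjusted p = 0.0183). The knockout itself was not checked, since 0 probe sets carry Il4i1 as their only symbol.

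Ifng was highest in effector cells and lowest in memory KO. In effector WT the 4 arrays read 10.42, 10.48, 10.49 and 10.54, and in effector KO 9.98, 10.44, 10.12 and 10.16. Memory WT read 9.62, 10.38, 9.62 and 9.54, and memory KO 8.20, 8.70, 9.15 and 7.76. All memory KO arrays lay below all others, the remaining neighbours in the order effector WT, effector KO, memory WT overlapped, and the spread grew from an SD of 0.05 in effector WT to 0.60 in memory KO.

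Tnf showed the opposite order, with means of 6.47 in memory KO, 6.08 in memory WT, 5.64 in effector KO and 5.49 in effector WT. Memory KO read 6.64, 6.47, 6.16 and 6.60, and memory WT 6.30, 5.65, 5.93 and 6.44. Effector KO read 6.43, 5.42, 5.61 and 5.10, and effector WT 5.71, 5.18, 5.53 and 5.56. Every neighbouring pair in this order overlapped, and 1 effector KO array, replicate 1, lay among the memory arrays. Effector WT replicate 1 (5.71) also lay above the lowest memory array, memory WT replicate 2 (5.65).

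Il10, the inhibitory cytokine of the group, read 6.66, 6.19, 7.17 and 6.65 in effector WT and 6.99, 6.43, 6.87 and 5.68 in effector KO. In memory WT it read 5.39, 4.85, 6.07 and 5.08, and in memory KO 4.36, 4.55, 5.49 and 4.53. The 2 effector groups overlapped, as did the 2 memory groups, and the lowest effector KO array (5.68) lay under the highest memory WT array (6.07). Of the 4 memory KO arrays 3 read 4.36 to 4.55, close to the array medians, so the lowest Il10 readings are of dim signal.

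**Figure D1:**
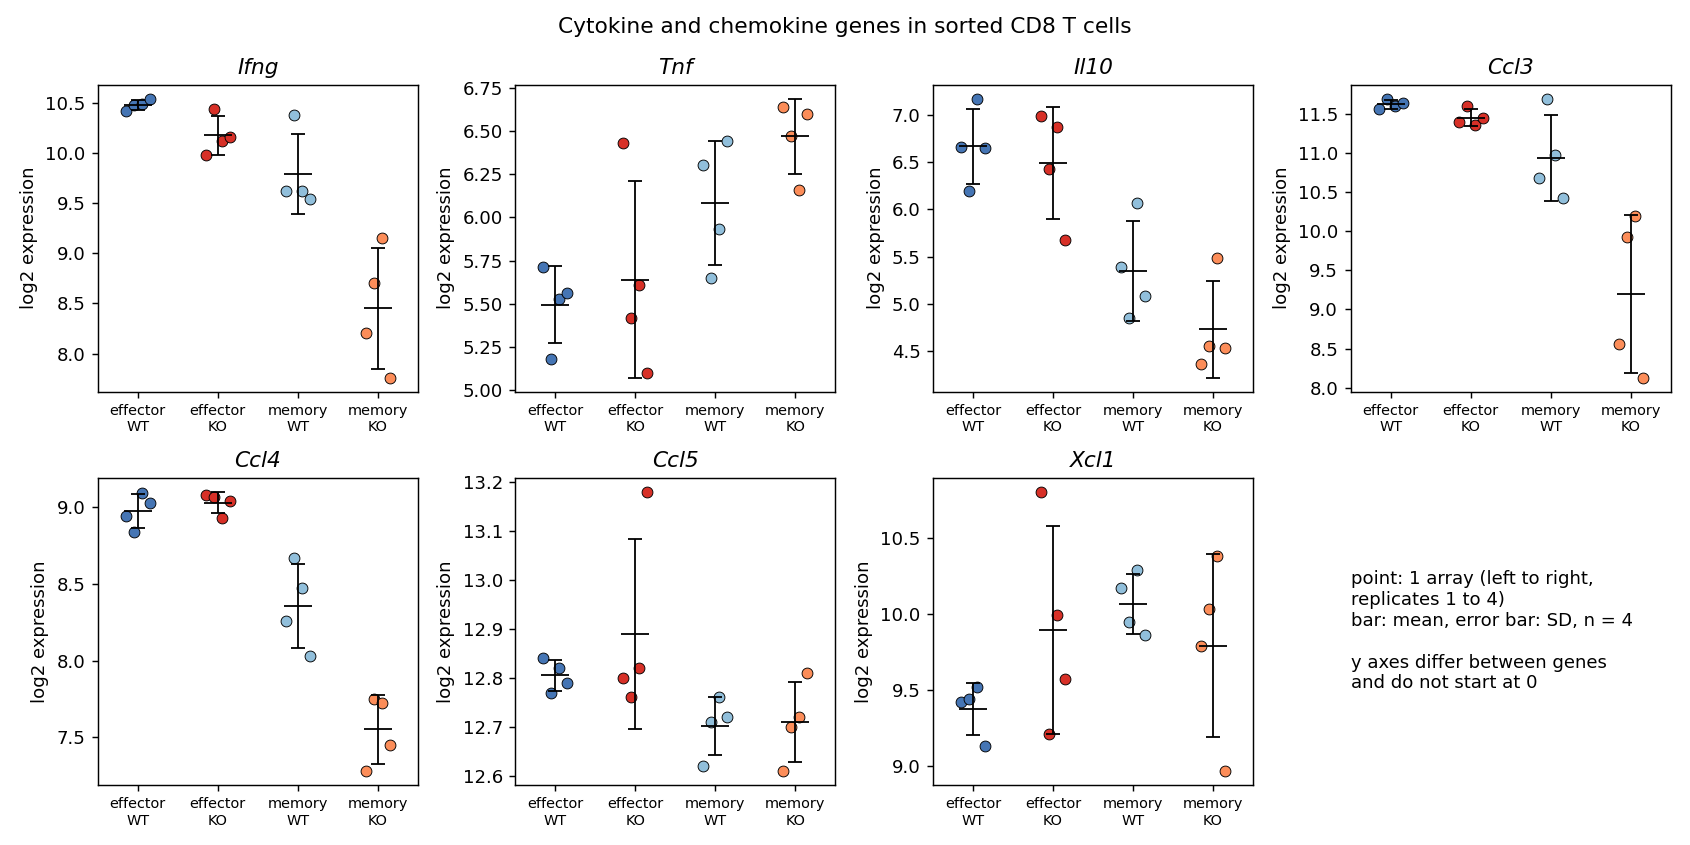
Log2 expression (y axis, scaled per gene, not from 0) of the 7 genes in the 4 groups (x axis), with 1 point per array, the mean as a bar and the SD as the error bar (n = 4). Memory KO is the lowest group for Ifng, Ccl3 and Ccl4 with no overlap with memory WT, Tnf is higher in the memory groups, and Ccl5 stays between 12.61 and 13.18.

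Ccl3 had the widest spread of the chemokines in memory KO. Effector WT read 11.56, 11.69, 11.60 and 11.64, and effector KO 11.39, 11.60, 11.35 and 11.45. Memory WT read 10.68, 11.69, 10.97 and 10.42, and memory KO 8.56, 9.92, 10.19 and 8.13. Memory KO replicates 1 and 4 lay more than 1 log2 unit under replicates 2 and 3, and all 4 lay under every memory WT array. Memory WT replicate 2 reached the effector level, so memory WT overlapped both effector groups.

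Ccl4 separated the 2 subsets without overlap. Effector WT read 8.94, 8.84, 9.09 and 9.03, and effector KO 9.08, 9.07, 8.93 and 9.04. Memory WT read 8.26, 8.67, 8.47 and 8.03, and memory KO 7.28, 7.75, 7.72 and 7.45. The order was effector KO and effector WT, which overlapped, then memory WT, then memory KO, with a gap of means of 0.62 between effector WT and memory WT and of 0.81 between memory WT and memory KO.

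Ccl5, a chemokine held at high levels by antigen-experienced CD8 cells, barely varied. Its arrays read 12.84, 12.77, 12.82 and 12.79 in effector WT, 12.80, 12.76, 12.82 and 13.18 in effector KO, 12.62, 12.71, 12.76 and 12.72 in memory WT, and 12.61, 12.70, 12.72 and 12.81 in memory KO. Its probe set ranked between 1 and 6 of 41345 on each array by signal, and array maxima were 12.72 to 14.05. Whether the top of the scale limits its differences was not tested. All neighbouring groups overlapped.

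Xcl1 read 9.42, 9.44, 9.52 and 9.13 in effector WT and 10.80, 9.21, 9.99 and 9.57 in effector KO. Memory WT read 10.17, 9.95, 10.29 and 9.86, and memory KO 9.79, 10.03, 10.38 and 8.97. The KO arrays were more spread than the WT arrays, with SDs of 0.68 and 0.60 in effector and memory KO and 0.17 and 0.20 in effector and memory WT; this difference in spread was not tested. Effector WT lay under memory WT without overlap, and all neighbouring groups in the order memory WT, effector KO, memory KO, effector WT overlapped.

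Ifng and Ccl4 were lower in KO than in WT memory cells. The comparison asks what the loss of Il4i1 in marrow-derived cells changes in memory CD8 T cells of leukaemic mice. Ifng was 2.53-fold lower in KO, a log2 difference of -1.34 ± 0.24 (SE from the fit of all 16 arrays, n = 4 and 4, limma adjusted p = 0.0404). This fit uses 1 spread per gene, shared by the 4 groups. The SDs of Ifng were 0.05 and 0.19 in effector WT and KO, and 0.40 and 0.60 in memory WT and KO. Those of Ccl3 were 0.05 and 0.11, and 0.55 and 1.01. The memory SEs and intervals of these genes thus draw on the tighter effector arrays. Ccl4 was 1.75-fold lower (-0.81 ± 0.13, limma adjusted p = 0.0234). Ccl3 had the largest difference of the 7, -1.74 ± 0.36 (3.35-fold, 95% interval -2.50 to -0.98), and missed the threshold of 0.05 with a limma adjusted p of 0.0754. Thus 2 of 7 passed lower and 0 higher, where 0.0766% of all genes passed lower and 0.113% in either direction. Since the 7 were chosen with earlier results of these data known, these shares are no independent test of the group. For Ifng, Ccl3 and Ccl4 the KO and WT arrays did not overlap, as for 3.37% of all genes in this direction, and each had an exact two-sided permutation p of 0.0286, the smallest that 4 against 4 allows. The median difference of the 7 was -0.62, beside 0.02 over all genes.

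The calls of Ifng and Ccl4 depended on single arrays. Both were lost without memory KO 1 (adjusted p = 0.146 and 0.0849), memory KO 4 (0.126 and 0.104), memory WT 1 (0.0918 and 0.0556), memory WT 2 (0.126 and 0.0758) or memory WT 3 (0.0747 and 0.0747), and in a fit of the 8 memory arrays alone (0.196 and 0.16). Ifng was also lost without effector KO 1, effector KO 3 or any 1 of the effector WT arrays (adjusted p = 0.0517 to 0.0697). Its difference stayed between -1.57 and -1.11 and that of Ccl4 between -0.91 and -0.70 when 1 array was left out. Ccl3 passed without memory KO 2 (0.0498) or memory KO 3 (-2.07, adjusted p = 0.00693). Of all genes, 29 and 249 passed in these 2 fits, against 25 in the main fit.

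The other 4 genes did not pass in memory cells. Il10 was at -0.62 ± 0.32 (limma adjusted p = 0.492, 95% interval -1.29 to 0.06) and Tnf at 0.39 ± 0.23 (0.567, -0.10 to 0.89). Xcl1 was at -0.27 ± 0.29 (0.787, -0.90 to 0.35) and Ccl5 at 0.01 ± 0.09 (0.987, -0.19 to 0.21). The intervals of Il10, Tnf and Xcl1 include changes of more than 0.8, and that of Ccl5 is for a probe set with signal near the top of the scale.

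In effector cells, 0 of the 7 genes passed between KO and WT, and 0 had an unadjusted p under 0.05, where 12 genes or 0.0541% of all passed by limma and 9.32% had an unadjusted p under 0.05. Xcl1 had the largest difference, 0.51 ± 0.29 (95% interval -0.11 to 1.14, adjusted p = 0.605), followed by Ifng at -0.31 ± 0.24 (-0.81 to 0.19, adjusted p = 0.695). The exact permutation p was 0.0571 for Ifng, 0.0857 for Ccl3, 0.2 for Xcl1 and 0.486 to 0.771 for the others. The effector SEs of Ifng and Ccl3 draw in turn on the wider memory arrays, so a small difference in effector cells is not excluded. Without effector KO 1 the Xcl1 difference was 0.21, and without effector KO 2 it was 0.74. Il10 was at -0.18, Ccl3 at -0.17, Tnf at 0.15, Ccl5 at 0.08 and Ccl4 at 0.06, each with an adjusted p of 0.807 or more. Without effector KO 4, Il10 was at 0.09 and Ccl5 at -0.01. The interval of Ccl4, -0.22 to 0.33, and that of Ccl3, -0.93 to 0.58, do not reach the differences measured in memory cells. Those have intervals of their own, -1.08 to -0.53 for Ccl4 and -2.50 to -0.98 for Ccl3, so setting them side by side is no test of a subset difference.

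Whether the KO difference itself depends on the subset was tested by the interaction, effector minus memory. No gene of the 22180 passed (0%), and 0 of the 7. Unadjusted p under 0.05 was reached by 3 of the 7, beside 5.84% of all genes. Ccl4 was at 0.86 ± 0.19 (limma adjusted p = 0.62), Ccl3 at 1.57 ± 0.51 (0.841) and Ifng at 1.03 ± 0.33 (0.841). Over all 22180 genes, Ccl4 ranked 9 by p. A different response of the 2 subsets is thus not called for any of these genes, and the intervals, 0.47 to 1.26 for Ccl4 and 0.32 to 1.74 for Ifng, are those before adjustment.

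Averaged over both subsets, 0 of the 7 passed between KO and WT, beside 0.194% of all genes, while 3 had an unadjusted p under 0.05 (13.9% of all genes). Ifng was at -0.82 ± 0.17 with a limma adjusted p of 0.0549. It passed in 7 of 24 alternative fits, with adjusted p from 0.00999 to 0.117 over all of them. Ccl3 was at -0.96 ± 0.25 (0.108) and Ccl4 at -0.38 ± 0.09 (0.0931).

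**Figure D2:**
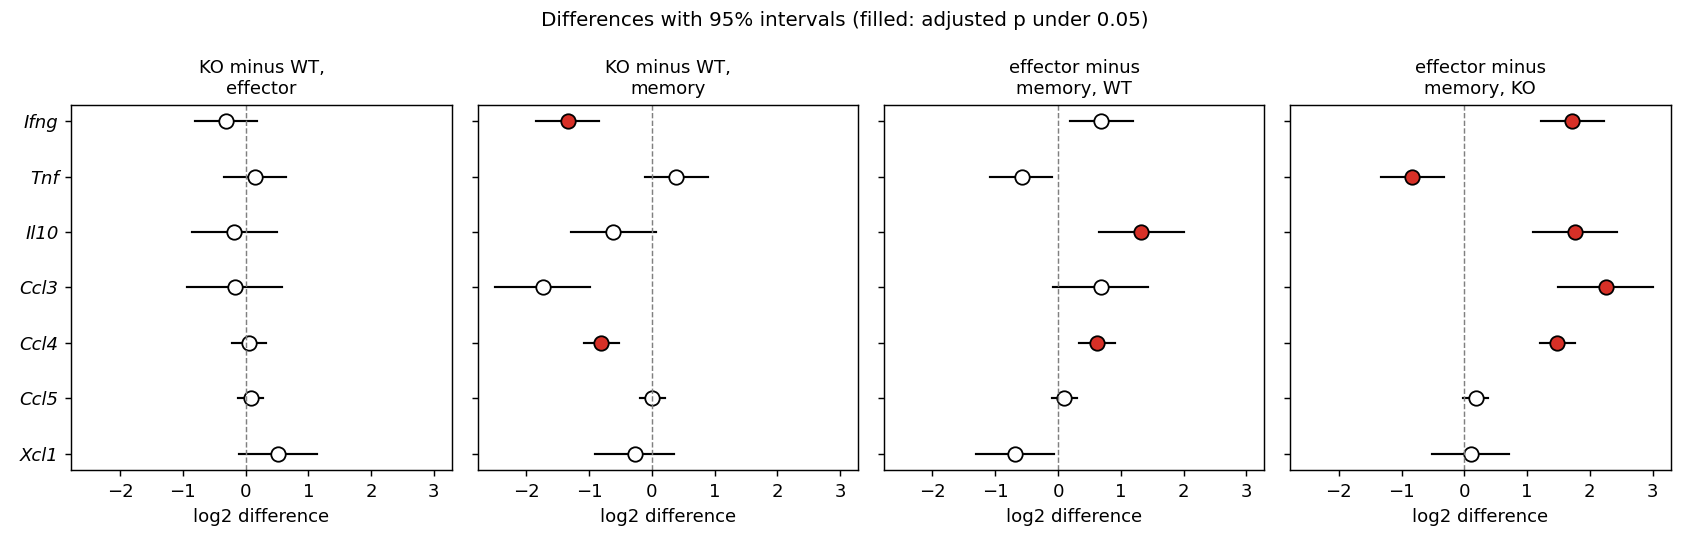
Log2 differences (x axis) of the 7 genes (y axis) in 4 comparisons, with 95% intervals of the limma fit before adjustment; filled points passed at an adjusted p under 0.05 over all genes. Filled points are Ifng and Ccl4 in memory KO against WT, Il10 and Ccl4 in effector against memory WT, and Ifng, Tnf, Il10, Ccl3 and Ccl4 in effector against memory KO.

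Effector cells had more Il10 and Ccl4 than memory cells in WT mice. Il10 was 2.50-fold higher (1.32 ± 0.32, limma adjusted p = 0.0312) and Ccl4 1.54-fold higher (0.62 ± 0.13, limma adjusted p = 0.0143). So 2 of 7 passed higher and 0 lower, beside 0.92% and 2.30% of all genes. Ifng (0.69 ± 0.24, adjusted p = 0.15) and Ccl3 (0.68 ± 0.36, 0.428) had higher means in effector cells and did not pass, and Tnf (-0.58 ± 0.23, 0.243) and Xcl1 (-0.69 ± 0.29, 0.287) had lower means. Ifng, Il10, Ccl4 and Ccl5 were higher without overlap, as were 6.41% of all genes, and Xcl1 was lower without overlap, as were 6.80%. The call of Il10 was lost without effector WT 1, 3 or 4 or without memory WT 1, 2 or 4 (adjusted p up to 0.111), and that of Ccl4 without effector WT 3, effector WT 4 or memory WT 1 (0.0508 to 0.0567). In a fit of the 8 WT arrays alone Ifng (0.037) and Xcl1 (0.00918) passed as well, and Ifng also passed without memory WT 2 (0.89, adjusted p = 0.0463) and with array quality weights (0.74, adjusted p = 0.0301).

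In KO mice the 2 subsets differed in 5 of the 7 genes. Ccl3 was 4.75-fold higher in effector cells (2.25 ± 0.36, limma adjusted p = 0.00106), Il10 3.39-fold over a dim memory KO signal with no known background (1.76 ± 0.32, 0.00284), Ifng 3.30-fold (1.72 ± 0.24, 0.000354) and Ccl4 2.79-fold (1.48 ± 0.13, 9.99e-06). Tnf was 1.78-fold lower (-0.83 ± 0.23, limma adjusted p = 0.0402). That is 4 higher and 1 lower, beside 3.14% and 4.30% of all genes. Ifng, Il10, Ccl3 and Ccl4 were higher without overlap, as were 4.06% of all genes. These 4 calls stood in each of the 26 alternative fits, whereas that of Tnf was lost in 11. These were the fit of the 8 KO arrays alone (0.133) and those without effector KO 2, 3 or 4, memory KO 1, 2 or 4, effector WT 1, 3 or 4, or memory WT 3 (adjusted p = 0.0508 to 0.11). Without effector KO 4 the Tnf difference was -0.65 (adjusted p = 0.0936). Ccl5 (0.18 ± 0.09, 0.305) and Xcl1 (0.10 ± 0.29, 0.899) did not pass. The difference between this contrast and that in WT is the interaction given above, which called none of the 7.

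The 2 subsets of KO mice share arrays with the comparisons against WT, so the values of each gene are set side by side. Ifng was 1.72 higher in effector cells in KO and 0.69 in WT, Ccl3 2.25 and 0.68, Ccl4 1.48 and 0.62, and Il10 1.76 and 1.32. Effector means hardly differed between genotypes for Ccl3 (11.45 and 11.62) and Ccl4 (9.03 and 8.97), while memory means were 9.20 in KO and 10.94 in WT for Ccl3, and 7.55 and 8.36 for Ccl4.

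Array by array, Ifng and Ccl3 varied together inside the groups. After subtraction of each group's mean, the correlation over the 16 arrays was 0.94 for Ifng with Ccl3, 0.78 for Ccl3 with Ccl4 and 0.69 for Ifng with Ccl4. Tnf went the other way, at -0.55 with Ifng and -0.49 with Ccl3. Il10 was near 0 with Ifng (0.11) and at 0.58 with Xcl1. Ccl5 lay between -0.43 and 0.13 with the other members, and between -0.19 and 0.33 without effector KO 4. Without effector KO 4 the Ifng and Ccl3 value was 0.94 again, and the value of Ccl5 with Il10 went from -0.32 to 0.33. These are descriptions over arrays of 4 groups that share the normalization, and for Ifng and Ccl3 the widest of the groups was memory KO (SD 0.60 and 1.01).

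**Figure D3:**
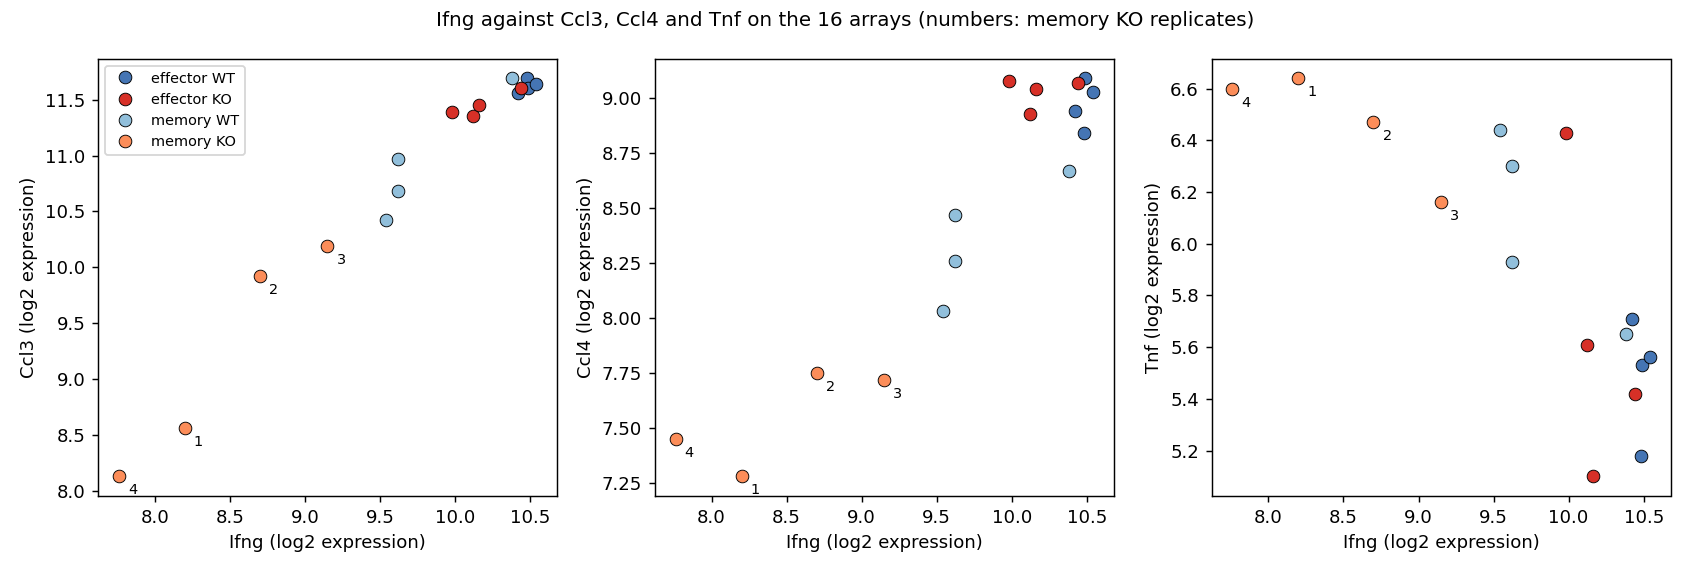
Log2 expression of Ccl3, Ccl4 and Tnf (y axes) against Ifng (x axes) on the 16 arrays, coloured by group, with memory KO replicates numbered. Memory KO 4 and 1 lie at the low end of Ifng and Ccl3 (7.76 and 8.13, 8.20 and 8.56) and at the high end of Tnf (6.60 and 6.64).

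The genes whose levels followed each member most closely over the 16 arrays were then listed, out of 12017 candidates. For Ifng they were the inhibitory receptor gene Lag3, Adap1 and Glcci1 (r = 0.98 each, and 0.92, 0.91 and 0.90 within groups). Ccl3 was followed by Ociad2 (0.99), Lag3 and Glcci1 (0.98 each), and Ccl4 by Frmd4b (0.97), AW112010 and Lag3 (0.96 each). Il10 was nearest to the integrin gene Itgad (0.95), Izumo1r and Plk3 (0.93 each). Tnf was nearest to Rmdn1 (0.93), Tapt1 (0.91) and the T cell adaptor gene Sit1 (0.90), and Xcl1 to the transcription factor genes Tcf3 and Myb and to Stimate (0.86 each). Ccl5 was nearest to Cnfn (0.91), Tjp3 and Mir483 (0.90 each), values that include the high reading on effector KO 4. These are the highest of many candidates over few arrays that share 4 groups, and describe these arrays only.

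Of 10 measured receptor genes, 0 passed between KO and WT in either subset. The nearest in memory cells was Tnfrsf1b, at -0.57 ± 0.18 (limma adjusted p = 0.25). Between subsets, both chains of the interferon gamma receptor were lower in effector than in memory cells. In WT, Ifngr1 was at -0.69 ± 0.13 (adjusted p = 0.00749), Ifngr2 at -0.93 ± 0.18 (0.00909) and Ccr1, dim on all arrays, at -0.54 ± 0.14 (0.0443). In KO, Ifngr1 (-0.65), Ifngr2 (-1.13) and Il10rb (-0.32) were lower and Il10ra (0.73) and Tnfrsf1b (0.67) higher. The list median was -0.27 in WT and -0.24 in KO, beside 0.01 over all genes in each. Over all genes, 0.92% passed higher and 2.30% lower in WT, and 3.14% and 4.30% in KO.

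Among 24 measured transcription regulators of these genes, 0 passed between KO and WT in either subset. In memory cells 15 of 24 were lower in KO, with a median of -0.19. Prdm1, which encodes Blimp-1, was at -0.91 ± 0.20 (limma adjusted p = 0.0887), Bhlhe40, a regulator of cytokine genes, at -0.89 ± 0.21 (0.122), and Irf4 at -0.83 ± 0.24 (0.209). Between subsets in WT, 2 passed higher and 2 lower, beside 0.92% and 2.30% of all genes. Prdm1 (0.79) and Ikzf3 (0.45) were higher in effector cells. Tbx21, which encodes the T-bet factor that drives Ifng, was 2.41-fold lower (-1.27 ± 0.29, limma adjusted p = 0.0202). Twist1 was lower too (-0.82) and dim, above the array median on 5 of 16 arrays. Tbx21 and Ifng thus had opposite signs between the subsets, although Ifng did not pass in WT. In KO, 16 of 24 were higher in effector cells and 8 lower, of which 8 passed higher and 2 lower, beside 3.14% and 4.30% of all genes. Maf, a regulator of Il10, was 5.97-fold higher (2.58 ± 0.40, adjusted p = 0.000876), Prdm1 2.82-fold (adjusted p = 0.000278), Bhlhe40 1.96-fold (0.97 ± 0.21), Egr1 by 0.96 on the log2 scale and Eomes 1.46-fold (0.55 ± 0.10), while Tbx21 (-1.10 ± 0.29) and Stat4 (-0.53 ± 0.10) were lower.

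Other secreted factors differed between subsets in few cases. Of 21 other T cell cytokine genes, 0 passed between KO and WT in either subset. In memory cells Csf1, the macrophage growth factor, was at -1.27 ± 0.37 (limma adjusted p = 0.214) and Fasl, the death ligand, at -0.48 ± 0.15 (0.237). Fasl was higher in effector than in memory cells in WT (0.70 ± 0.15, adjusted p = 0.014) and in KO (1.14 ± 0.15, 0.000243), and Ltb was lower in both (-0.64 and -0.75). In KO, Csf1 was 3.66-fold higher in effector cells (1.87 ± 0.37, adjusted p = 0.00504). Of 22 other chemokine genes, 0 passed between KO and WT. Those that passed between subsets were all lower in effector cells, namely Cxcl9, Ccl22, Cxcl16 and Cxcl10 in WT and Cxcl9 in KO. Lower calls made up 2.30% of all genes in WT and 4.30% in KO.

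Regulators of mRNA decay and release, such as Zfp36, whose product destabilises Tnf mRNA, numbered 11. Between KO and WT 0 of them passed, and between subsets Zfp36l1 was lower in effector cells in WT (-0.71 ± 0.15, limma adjusted p = 0.0141) and in KO, and no other passed. Genes induced by interferon gamma, 24 measured, gave 0 calls between KO and WT, with medians of 0.07 in effector and 0.04 in memory cells. In memory cells the signs were mixed, with Irgm2 at 0.58 ± 0.16 (adjusted p = 0.191), Irf8 at -1.01 ± 0.29 (0.21) and Ciita at -0.47 ± 0.13 (0.19). Between subsets in WT, the signs were near balance, with 14 lower and 10 higher in effector cells and a median of -0.04 (0.01 over all genes), and 10 passed lower and 1 higher. Iigp1 was 5.05-fold lower (-2.34 ± 0.24), Igtp 2.29-fold lower (-1.20 ± 0.20) and Socs1 at -0.82, while Nlrc5 was higher (0.71 ± 0.15). The MHC class II genes H2-Aa (-1.74) and H2-Ab1 (-1.67), which B cells also express, were among the 10. In KO, 13 were lower and 11 higher (median -0.08), and 8 passed lower and 0 higher. Over all genes, 2.30% passed lower and 0.92% higher in WT, and 4.30% and 3.14% in KO.

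Lists set up as markers of other spleen cells moved with some of these results. The 16 measured B and CLL cell markers had array means of 4.06 to 4.23 in effector WT, 4.14 to 4.43 in effector KO, 5.05 to 5.83 in memory WT and 4.61 to 5.14 in memory KO. In memory KO against WT 14 of 16 were lower, and Cd22 passed (-1.04 ± 0.16, limma adjusted p = 0.0145). The 2 higher were Ighm (0.24 ± 0.22, means of 11.33 and 11.09, above the array median on all 16 arrays) and Tcl1 (0.16 ± 0.16, above it on 0). Ms4a1, which encodes CD20, was above the array median on 6 of 16 arrays, and its means were 4.27 in memory KO and 5.67 in memory WT. Thus most of the B cell list, without Ighm, was lower in memory KO beside Ifng, Ccl3 and Ccl4, and its part in the result was not tested. Between the subsets, 14 of 16 B cell markers were lower in effector than in memory cells in WT (12 passed) and 14 of 16 in KO (3 passed). Lower calls made up 2.30% of all genes in WT and 4.30% in KO.

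CD4 and regulatory T cell markers, 10 measured, had array means of 6.57 to 6.72 in memory WT, 5.99 and 5.78 in memory KO 1 and 4, and 6.36 and 6.47 in memory KO 2 and 3. In memory KO 8 of 10 were lower, with a median of -0.36, and 0 passed. The lowest p-values were those of Ctla4 (-0.82 ± 0.23, limma adjusted p = 0.2), Izumo1r (-0.79 ± 0.24, 0.218) and Ikzf2 (-1.41 ± 0.49, 0.283). Cd4 had means of 4.28 in memory KO and 4.67 in memory WT and Foxp3 of 5.52 and 5.56. In effector KO and WT, the means were 7.74 and 7.92 for Ctla4, 9.1 and 9.39 for Izumo1r and 7.59 and 8.5 for Ikzf2. Those of Cd4 were 4.4 and 4.14. Whether the transcripts of this list come from CD4 cells or from the sorted CD8 cells was not tested. The order of the memory KO arrays, with 1 and 4 under 2 and 3, is that of Ifng and Ccl3. It was not particular to this list. The B and CLL cell list had it too (4.61 and 4.67 under 4.82 and 5.14). So had the myeloid list (4.9 and 4.68 under 5.38 and 4.99) and the transcription regulators (7.61 and 7.64 under 7.8 and 7.87), and also the receptor and other chemokine lists. It was not general either. The interferon gamma response list (8.17 and 8.25 over 8.06 and 8.13) had the reverse order. So had the NK cell list (5.47 and 5.32 over 5.27 and 5.3), the mRNA decay list (8.18 and 8.22 over 8.1 and 8.1) and the sort markers. The CD8 T cell and other cytokine lists had no clear order. The part of any of these transcripts in the result was not tested. Myeloid markers, 20 measured, were lower in 15 in memory KO with 0 calls, on array means of 4.68 to 5.38 in KO and 5.04 to 5.32 in WT. NK cell markers, which mark cells that also make these factors, had means of 5.27 to 5.47 in memory KO and 5.28 to 5.55 in memory WT, and 4.77 to 4.98 in the effector groups. CD8 T cell markers had means of 10.52 to 10.79 over all arrays, with 0 calls in any comparison.

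**Figure D4:**
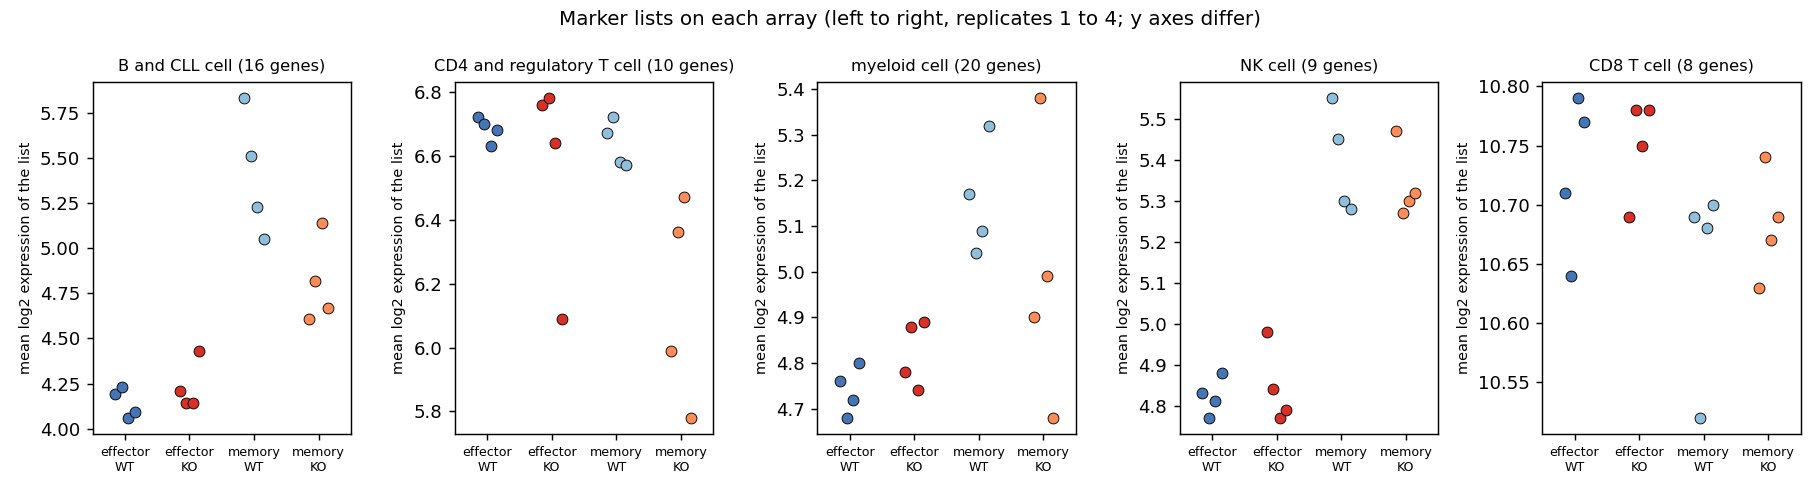
Mean log2 expression (y axes, scaled per list, not from 0) of 5 marker lists on each array (points, replicates 1 to 4 from left to right) in the 4 groups (x axes). The B and CLL cell list lies between 4.61 and 5.14 in memory KO and between 5.05 and 5.83 in memory WT, and the CD8 T cell list between 10.52 and 10.79 throughout.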

How the data were processed

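The deposited table holds 1 log2 expression value for each of 41345 probe sets in 16 samples, normalized by the authors. How they were normalized and the log base: not given in the sources used here. Log2 was inferred from the range, 0.7365 to 14.0453. Per the labels' protocols, RNA was labelled with the GeneChip WT Pico kit. Probe sets with exactly 1 symbol (23521) gave 22180 genes, the highest mean over all arrays being taken where a gene had several. No dim-signal filter was applied. A linear model with 1 mean for each of the 4 groups (12 residual degrees of freedom over 16 arrays) was fitted in limma 3.58.1 (R 4.3.3), with Benjamini-Hochberg adjustment over all genes, two-sided, threshold 0.05, and SEs from this fit; the code was tested on simulated data. The number of arrays limits the precision. The fit gives each gene 1 spread shared by the 4 groups, although the SDs of genes such as Ifng and Ccl3 differed between them. Same-numbered samples missed the rule set for pairing, a correlation of their deviations over 0.1 for all 4 numbers. It was over 0.1 for 3 of 4 numbers between effector and memory cells of each genotype, and for 0 or 1 of 4 between other groups. The number that missed was replicate 1, at 0.0871 in WT and 0.0178 in KO. Pairing is thus not settled, and the main fit did not use it. Members and lists were chosen with earlier results of these data known. The text names all members, at most 6 genes of a list that passed, by smallest p, or otherwise up to 3 with the smallest p. Cd4, Foxp3, Ms4a1, Ighm, Tcl1, Nlrc5, and Tbx21 in KO, were added after their values were seen. The text also names the 3 genes most alike each member, among genes above the array median on at least 4 arrays. Alternatives were other normalizations, filters, priors, weights, array subsets, blocks and leaving out each array.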

Additional observations from a re-analysis of the deposited data

Results flagged for a closer look

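Among 28 sets of 4 arrays (7 genes in 4 groups), 3 held a reading far from the other 3; chance flags about 1 in 20 such sets. Ifng on memory WT 2 read 10.38, against 9.54 to 9.62 on the other memory WT arrays, and without it the memory KO difference was -1.14. Il10 on memory KO 3 read 5.49, against 4.36 to 4.55. Ccl5 on effector KO 4 read 13.18, against 12.76 to 12.82, and was the highest value of that array.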

How the results depend on the processing

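Over 1050 refitted member differences, 983 kept their direction and side of the threshold, 38 lost and 16 gained a call, and 13 changed sign. Most of these differences were not called in the main fit and could not lose a call. In memory KO against WT, Ifng lost its call in 12 and Ccl4 in 6 of 25 fits. Between subsets, Tnf in KO lost its call in 11 of 26 fits, and in WT Il10 in 6 and Ccl4 in 3. Counts over all genes in the same fits are given in brackets. In memory KO against WT, 2 members were called (25), 0 in a fit of the memory arrays alone (7), and 0 to 3 when 1 array was left out (11 to 249). Over both subsets, 0 were called (43), and 0 to 2 when 1 array was left out (23 to 329). There Ifng alone was called with arrays centred on their median (63), an intensity trend (78) and array quality weights (72). It was also the only one called with only genes above the array median on at least 4 arrays (92). In effector against memory WT, 2 were called (715), 4 with the WT arrays alone (1320), and 0 to 2 when 1 array was left out (359 to 1037). With the replicate number as a block, 2 members (Ifng and Ccl3, adjusted p = 0.0142 and 0.0343) were called over both subsets, among 389 of all genes. In memory cells 3 were called, where Ccl3 joined (0.0225), among 104 of all genes. The block thus raised the calls over all genes as well. The block changed no other call, nor did genotype and number together as a block. In WT every sample correlated best with its own number in the other subset (4 of 4 each way), in KO 3 of 4, a hint from the data and not from the design.

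Signs changed only for uncalled differences. After quantile normalization the Ccl5 interaction was -0.02 and with array weights 0.00, and with arrays centred on their median Ccl5 was at -0.04 in memory KO against WT. When 1 array was left out, Ccl5 ranged from -0.01 to 0.12 in effector KO against WT, -0.03 to 0.04 in memory KO against WT, -0.02 to 0.12 in the interaction and 0.00 to 0.07 over both subsets. In effector KO against WT, Tnf ranged from -0.12 (without effector KO 1) to 0.32 and Il10 from -0.34 to 0.09 (without effector KO 4). Xcl1 ranged from -0.03 to 0.26 over both subsets and from -0.20 to 0.33 in effector against memory KO, where it was at -0.17 without memory KO 4. The number of genes called over all 22180 ranged from 7 to 249 in memory KO against WT, against 25. In effector against memory KO it was 600 to 2044, against 1649. The cause of these shifts was not tested. Dim readings such as Il10 in memory KO have no detection limit here, as the table gives no background.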
